A study of Sus scrofa with 8 samples.

Results

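The genes described here are those of T cells and of intraepithelial lymphocytes, the T cells that lodge between the epithelial cells of a mucosa. They were chosen by name: CD3D, CD3E, CD4, CD8A, CD8B, CCL5, GZMA, ITGAE, KLRK1 and BTNL2. These 10 symbols matched 11 pig Ensembl ids of the 31907 genes in the files, because GZMA had 2 ids, and each id was followed separately. All 11 ids passed the filter on low counts, as did 16549 genes in all.

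The study used Guizhou minipigs, 8 months old, and asked, by its title, whether the animal's own peritoneum can replace the mucosa of a bladder rebuilt from ileum. Total RNA of 8 samples was sequenced after Smart-seq2 amplification, 2 samples in each of 4 groups. MN-Exp was the mucosa of the neobladder (the rebuilt bladder) in the experimental group and MN-Ctrl that in the control group. NP was normal peritoneum, the serous lining of the abdomen, and MNB was the mucosa of the normal bladder. No allele, transgene or drug was named for any group. How the control neobladder was lined, the time since surgery, and whether the 2 samples of a group came from different animals were not stated in the labels, so the p-values below measure only the spread between these samples.

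T cells read antigen through a receptor whose signal passes through the CD3 chains, and the coreceptors CD4 and CD8 steer it to MHC class II or class I. In the gut, many of these cells sit inside the epithelium, carry CD8, hold on to epithelial E-cadherin through the integrin αE (ITGAE), and keep granzymes ready in granules. In pigs CD8A is also found on natural killer cells, on many γδ T cells and on activated or memory CD4 cells, while CD8B is the partner chain of the classical cytotoxic T cell. Some butyrophilin-like genes, known mainly from mouse and human, are expressed by gut epithelium and act on T cells from outside.

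Values are scaled CPM, a gene's count as a share of its library's total set to a common size, in which each library total was first corrected for composition by TMM, the trimmed mean of M-values. Totals ran from 7939291 to 11884868 counts, and the correction factors were 0.839 and 0.449 in MN-Ctrl against 1.09 to 1.24 in the other 6 libraries. The tissue labels were checked on marker lists. The 10 enterocyte markers with an id, of 13 listed, summed to 44598 and 162261 scaled CPM in MN-Ctrl. In the other 6 libraries they summed to 54.2 to 135. The intestinal regulator CDX2 was at 0 counts in every MN-Exp and MNB library. VIL1, on the same list, stood at 15.5 and 2.23 in MN-Exp, against 0.446 to 1.34 in NP and MNB. At adjusted p under 0.05, VIL1 alone of the 10 differed between MN-Exp and NP, as higher (24.2% of all genes called). None of the 10 differed from MNB (0.0967% of all genes). The 8 urothelial markers with an id, of 10 listed, summed to 4321 and 8412 in MN-Exp, 66.5 and 154 in MN-Ctrl, 502 and 969 in NP, and 9877 and 8873 in MNB. The uroplakin gene UPK1A was at 0 in 1 MN-Ctrl and both NP libraries. Of 7 mesothelial markers 3 had an id. The mesothelial factor WT1 stood at 25.3 and 27.7 scaled CPM in NP and at 0 to 0.187 in the other 6 libraries, HAS1 was counted in all groups, and CALB2 was at 0 everywhere.

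In MN-Exp, 8 of the 11 T cell and intraepithelial lymphocyte ids fell against MN-Ctrl and none rose, where 21.7% of all tested genes were called in either direction and 11.3% as lower. The 3 ids that were not called were the coreceptors CD4, CD8A and CD8B. Against NP, 7 of the 11 rose in MN-Exp and none fell (24.2% of all genes called, 12.4% as higher). Against MNB no member was called (0.0967% of all genes). Both MN-Exp libraries lay above both MNB libraries for 6 ids and below them for 2, where 24.8% and 23.7% of all genes did so. Calls are Benjamini-Hochberg adjusted p-values under 0.05 over all 16549 genes, from edgeR's quasi-likelihood test.

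**Figure D1:**
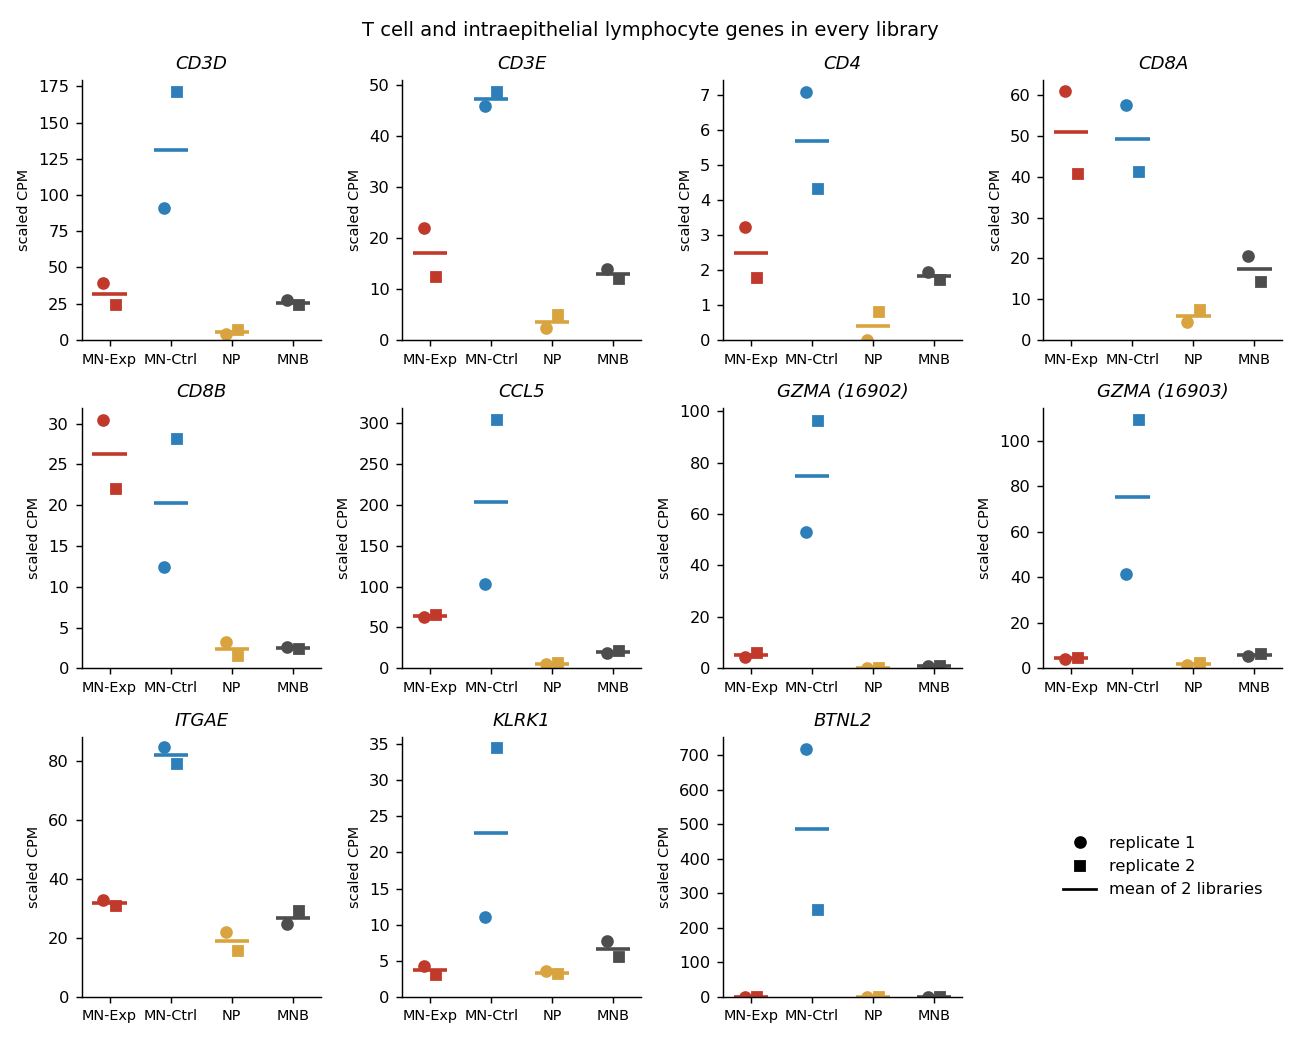
Level of each of the 11 ids in the 8 libraries, in scaled CPM on linear axes that start at 0 and differ between panels; each point is 1 library (circle, replicate 1; square, replicate 2) and the line is the group mean. Both MN-Ctrl points lie above all others for every id except CD8A and CD8B, for which the MN-Exp and MN-Ctrl points overlap.

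CD3D encodes the δ chain of the receptor's signalling complex. It stood at 39.0 and 23.9 scaled CPM in MN-Exp, 91.3 and 171 in MN-Ctrl, 4.38 and 6.68 in NP, and 27.7 and 23.8 in MNB. The MN-Ctrl libraries were above all others and the NP libraries below all others, while MN-Exp and MNB overlapped. CD3D was 4.17-fold lower in MN-Exp than in MN-Ctrl (log2 fold change -2.06 ± 0.44 SE, adjusted p = 0.00845) and 5.67-fold higher than in NP (2.50 ± 0.46, adjusted p = 0.00329). The call against MN-Ctrl was lost on library totals, that is without the composition correction (-1.11), and without MN-Exp replicate 2 (-1.73).

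CD3E, its ε chain partner, stood at 22.0 and 12.2 scaled CPM in MN-Exp, 46.0 and 48.7 in MN-Ctrl, 2.24 and 4.81 in NP, and 13.9 and 12.0 in MNB. The order of the groups was that of CD3D. CD3E was 2.77-fold lower in MN-Exp than in MN-Ctrl (-1.47 ± 0.44, adjusted p = 0.0389) and 4.81-fold higher than in NP (2.27 ± 0.47, adjusted p = 0.00652). The call against MN-Ctrl held in 6 of 14 alternative settings. It was lost on library totals (adjusted p = 0.385), with the 2 groups alone (0.0703), with a replicate block (0.055), and without either MN-Exp library, either MNB library or MN-Ctrl replicate 2 (0.0503 to 0.299). The call against NP was lost without NP replicate 1 (1.85) and without MN-Exp replicate 1 (1.82). The 2 genes lie side by side on chromosome 9 of Sscrofa11.1, CD3E at 45619730 to 45633972 and CD3D at 45640475 to 45644153 in the RefSeq annotation. Against MNB the differences in MN-Exp were 0.29 ± 0.43 for CD3D and 0.40 ± 0.44 for CD3E on the log2 scale, below their own standard errors.

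None of the coreceptors was called between MN-Exp and MN-Ctrl. CD4, which marks helper T cells and some other leukocytes, was counted least reliably: 3.22 and 1.76 scaled CPM in MN-Exp, 7.08 and 4.31 in MN-Ctrl, 0 and 0.802 in NP, and 1.94 and 1.72 in MNB. These were 57 counts in MN-Exp, 88 in MN-Ctrl, 9 in NP and 47 in MNB, and a count of 0 in NP replicate 1 allows up to 0.306 scaled CPM. The MN-Exp libraries were both below the MN-Ctrl libraries, but the difference was not called (-1.19 ± 0.91, adjusted p = 0.371). CD4 lies on chromosome 5 at 63892129 to 63918547.

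CD8A stood at 61.0 and 40.8 scaled CPM in MN-Exp, 57.6 and 41.2 in MN-Ctrl, 4.38 and 7.40 in NP, and 20.7 and 14.1 in MNB. The neobladder groups overlapped, and both lay above NP and MNB. Between MN-Exp and MN-Ctrl the log2 difference was 0.04 ± 0.41 (adjusted p = 0.956), and its sign changed between settings. CD8A was 8.61-fold higher in MN-Exp than in NP (3.11 ± 0.45, adjusted p = 0.00084). Against MNB it was 2.93-fold higher in MN-Exp but not called (1.55 ± 0.42, adjusted p = 0.297).

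CD8B stood at 30.4 and 22.0 scaled CPM in MN-Exp, 12.4 and 28.1 in MN-Ctrl, 3.26 and 1.51 in NP, and 2.58 and 2.39 in MNB. Every neobladder library lay above every NP and MNB library. The gene was 11.0-fold higher in MN-Exp than in NP (3.46 ± 0.56, adjusted p = 0.00164) and 8.06-fold higher in MN-Ctrl than in MNB (3.01 ± 0.55, adjusted p = 0.00372). These differences were 4.13 without NP replicate 1 and 2.31 without MN-Ctrl replicate 2, both still called. MN-Exp was 10.5-fold above MNB, at 596 against 64 counts, with an adjusted p of 0.0652 (3.39 ± 0.55); this was the smallest adjusted p of the 11 ids in that comparison. CD8B, at 57968358 to 57986450, and CD8A, at 57999228 to 58029768, are neighbours on chromosome 3.

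CCL5 is a chemokine released by activated and memory T cells and natural killer cells. It stood at 62.3 and 64.8 scaled CPM in MN-Exp, 103 and 303 in MN-Ctrl, 5.09 and 6.24 in NP, and 19.1 and 21.3 in MNB. The 4 groups did not overlap, and the MN-Ctrl libraries lay far apart. CCL5 was 3.19-fold lower in MN-Exp than in MN-Ctrl (-1.67 ± 0.48, adjusted p = 0.032), and the call held in 7 of 14 alternative settings. Without MN-Ctrl replicate 2 the difference was -0.69 and not called, and the call was also lost on library totals, with the 2 groups alone and without any 1 of the MN-Exp and MNB libraries. It was 11.2-fold higher in MN-Exp than in NP (3.48 ± 0.52, adjusted p = 0.00109) and 3.14-fold higher than in MNB, which was not called (1.65 ± 0.48, adjusted p = 0.333). CCL5 lies on chromosome 12 at 39652731 to 39659121.

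GZMA encodes granzyme A, a serine protease of cytotoxic granules. Its 2 ids, ENSSSCG00000016902 and ENSSSCG00000016903, match 2 RefSeq GZMA entries next to each other on chromosome 16 (34262495 to 34272084 and 34282160 to 34290422). Which id belongs to which entry is not paired in the tables used here, and reads shared by similar copies may have been split or dropped, so the division between the ids is uncertain. The first id stood at 4.41 and 5.93 scaled CPM in MN-Exp, 53.0 and 96.3 in MN-Ctrl, 0 and 0.178 in NP, and 0.969 and 0.971 in MNB. It was 14.4-fold lower in MN-Exp than in MN-Ctrl (-3.85 ± 0.51, adjusted p = 0.000588). Between MN-Exp and NP it had 116 against 2 counts, a ratio of 54.0 with a 95% counting interval of 14.6 to 451 (adjusted p = 0.000602).

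The second id stood at 4.07 and 4.73 scaled CPM in MN-Exp, 41.6 and 109 in MN-Ctrl, 1.43 and 2.32 in NP, and 5.49 and 6.50 in MNB. It was 17.0-fold lower in MN-Exp than in MN-Ctrl (-4.09 ± 0.53, adjusted p = 0.000548), and without MN-Ctrl replicate 2 the difference was -3.23. The ids parted in the bladder: against MNB the first was 5.27-fold higher in MN-Exp (2.40 ± 0.53, adjusted p = 0.187) and the second 1.36-fold lower (-0.45 ± 0.49, adjusted p = 0.948), neither of them called. Both ids stayed called as lower in MN-Exp than in MN-Ctrl under all 14 alternative settings.

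ITGAE encodes the αE chain of the integrin that binds E-cadherin. It stood at 33.0 and 30.7 scaled CPM in MN-Exp, 84.9 and 79.1 in MN-Ctrl, 22.0 and 15.7 in NP, and 24.7 and 29.1 in MNB. The MN-Ctrl libraries stood above the other 6, which lay between 15.7 and 33.0. ITGAE was 2.58-fold lower in MN-Exp than in MN-Ctrl (-1.37 ± 0.34, adjusted p = 0.0184), and its differences from NP (0.76 ± 0.34, adjusted p = 0.133) and MNB (0.24 ± 0.34, adjusted p = 0.972) were not called. The call against MN-Ctrl was lost on library totals (-0.58), with the 2 groups alone (-1.44) and without either MN-Exp library (-1.39 and -1.30). On chromosome 12, at 49810050 to 49878142, it overlaps GSG2, so reads of the 2 genes may not have been told apart where counting ignored strand, which was not stated.

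KLRK1 encodes NKG2D, an activating receptor of natural killer cells and CD8 T cells that reads stress ligands on epithelium. It stood at 4.32 and 3.06 scaled CPM in MN-Exp, 11.0 and 34.5 in MN-Ctrl, 3.57 and 3.12 in NP, and 7.67 and 5.53 in MNB. MN-Exp overlapped NP and lay below both MNB libraries. KLRK1 was 6.10-fold lower in MN-Exp than in MN-Ctrl (-2.61 ± 0.59, adjusted p = 0.0109); the difference from MNB was -0.83 ± 0.57 (adjusted p = 0.834) and that from NP 0.15 ± 0.58 (adjusted p = 0.884). Against MN-Ctrl the call was lost without MN-Ctrl replicate 2 (-1.56, adjusted p = 0.0658), on library totals (-1.57, adjusted p = 0.0629), and without either MN-Exp library (adjusted p = 0.0538 and 0.109). It lies on chromosome 5 at 61646691 to 61655386.

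BTNL2 is a butyrophilin-like gene whose product restrains T cell activation in mice and which is expressed in gut. It had 9 and 4 counts in MN-Exp, 6586 and 1344 in MN-Ctrl, and 0 in all NP and MNB libraries, which allows at most 0.224 to 0.306 scaled CPM in each (3 counts per library). Its levels were 0.763 and 0.371 scaled CPM in MN-Exp against 717 and 252 in MN-Ctrl, an 830-fold difference (-9.70 ± 0.82, adjusted p = 0.000151). It was -8.72 without MN-Ctrl replicate 1 and -10.29 without MN-Exp replicate 1. With 3 counts taken over the group at 0, MN-Exp was 4.04-fold higher than NP (adjusted p = 0.0424, from 13 counts). It was 4.94-fold higher than MNB, which was not called (adjusted p = 0.345). Taken in the same way, MN-Ctrl was 4690-fold higher than MNB and 3830-fold higher than NP. These folds allow for the group at 0 and not for counting error in MN-Exp or MN-Ctrl. BTNL2 lies on chromosome 7 at 24789988 to 24809920 and overlaps the RefSeq gene LOC100513291.

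**Figure D2:**
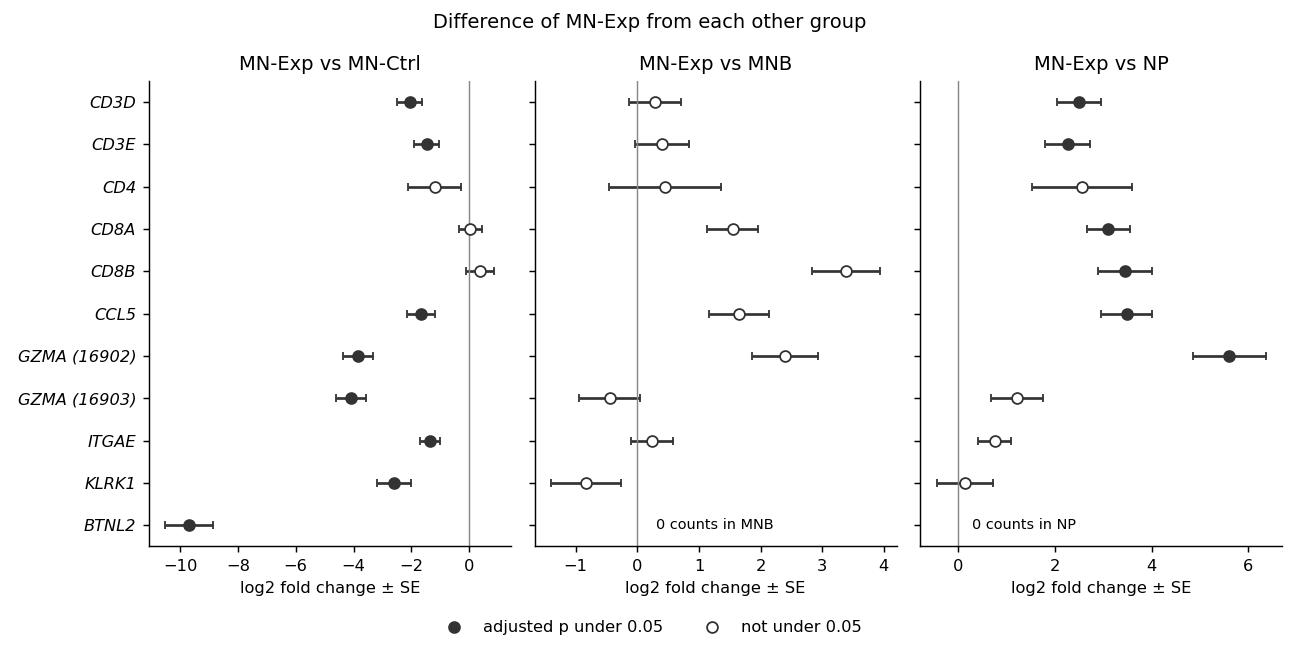
Log2 fold change of each id, with its standard error, in MN-Exp against each other group, on an axis of its own in each panel; filled points have an adjusted p under 0.05 over all tested genes. In MN-Exp against MN-Ctrl the CD3 chains, CCL5, both GZMA ids, ITGAE, KLRK1 and BTNL2 lie left of 0, and CD8A and CD8B lie at 0.04 and 0.38. BTNL2 has no point against MNB or NP, where it had 0 counts.

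Set side by side, the comparisons share libraries and are not independent of one another. In MN-Exp against MN-Ctrl the median log2 fold change of the 11 ids was -1.67, where that of all tested genes was 0.11. The libraries of the groups did not overlap for 9 of the ids, all lower in MN-Exp, where 26.2% of all genes were lower without overlap. On library totals alone, without the composition correction, 3 of the 8 calls held (both GZMA ids and BTNL2), and the median of all genes moved to 0.89. With 1 library left out the 8 ids stayed lower in MN-Exp. The differences ran from -2.23 to -0.69 for CCL5, -3.19 to -1.56 for KLRK1 and -1.93 to -1.09 for CD3E. Calls lost in these fits are given with each id above.

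Lists of other immune cells were read beside these genes. The 5 pan-leukocyte markers with an id, of 6 listed, summed to 441 and 264 scaled CPM in MN-Exp, 728 and 775 in MN-Ctrl, 233 and 260 in NP, and 352 and 343 in MNB, with none at 0. B and plasma cell markers (11 of 11) summed to 2595 and 1307 in MN-Exp against 3794 and 10370 in MN-Ctrl, and macrophage and dendritic cell markers (13 of 14) to 1723 and 1792 against 4249 and 9381. In MN-Exp against MN-Ctrl, 21.7% of all genes were called and 11.3% as lower. Of the tested markers, 2 of 5 pan-leukocyte genes (CD53 and CORO1A) fell in this comparison. So did 2 of 10 B and plasma cell genes (MZB1 and TNFRSF17), a called share near that of all genes. Among macrophage and dendritic cell genes 5 of 12 fell (TYROBP, AIF1, C1QA, C1QB and C1QC). None of the tested markers on these lists rose. Several did not share the direction of the sums: CD14 averaged 17.5 ± 5.21 scaled CPM in MN-Exp and 8.08 ± 0.495 in MN-Ctrl, CD163 18.8 ± 8.76 in MN-Exp and 9.56 ± 3.72 in MN-Ctrl, and LAPTM5 201 ± 53.1 in MN-Exp and 198 ± 35.1 in MN-Ctrl, none of them called. The B cell factor PAX5 was at 0 in MN-Ctrl replicate 2 and both NP libraries, and LYZ was at 0 in all libraries. The part of these cells, and of the enterocyte content of MN-Ctrl, in the member differences was not tested. In bulk RNA, fewer cells of a type and less RNA per cell cannot be told apart.

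In MN-Exp against MNB, 5 of the 11 ids had an unadjusted p under 0.05, all of them higher, where 8.01% of all genes did; they were CD8A, CD8B, CCL5, the first GZMA id and BTNL2. DESeq2 called 3 of the 11, CD8A, CD8B and the first GZMA id, all higher, where it called 1.50% of all genes. The median over the ids was 0.45, against 0.02 for all genes. The ids above in both libraries were CD8A, CD8B, CCL5, the first GZMA id, ITGAE and BTNL2, and those below were the second GZMA id and KLRK1.

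In MN-Exp against NP, the 7 called ids were CD3D, CD3E, CD8A, CD8B, CCL5, the first GZMA id and BTNL2. The median of the 11 ids was 2.56, against -0.01 for all genes. CD4 (2.56 ± 1.04, adjusted p = 0.0977) and the second GZMA id (1.22 ± 0.53, adjusted p = 0.119) lay higher in both MN-Exp libraries but were not called. BTNL2 lost its call on library totals and without any 1 of the 4 MN-Exp and NP libraries.

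MN-Ctrl was higher than MNB for 10 of the 11 ids (22.3% of all genes called, 11.2% as higher) and higher than NP for all 11 (42.3% called, 21.6% as higher). CD4 was the exception against MNB (1.64 ± 0.92, adjusted p = 0.22). The medians were 2.35 against MNB, where all genes had -0.11, and 3.75 against NP, where all genes had -0.06. The first GZMA id was 75.9-fold higher in MN-Ctrl than in MNB (6.25 ± 0.58, adjusted p = 9.12e-05), the second 12.5-fold (3.64 ± 0.52, adjusted p = 0.000896), and ITGAE 3.04-fold (1.61 ± 0.35, adjusted p = 0.00869). Without MN-Ctrl replicate 2 the differences from MNB were 2.34 for CCL5, against 3.32 as reported, and 2.79 for the second GZMA id. The call of KLRK1 against MNB (1.77) held in 4 of 14 alternative settings, and without MN-Ctrl replicate 2 the difference was 0.74. Without the composition correction 5 of the 10 calls against MNB were left, where 763 of 16549 genes were called higher and 3327 lower. Without MNB replicate 1 the differences were 1.80 for CD8A, 1.96 for CD3E and 2.01 for KLRK1. Without MNB replicate 2 they were 1.25, 1.76 and 1.54. Some of the 10 calls were lost in these fits.

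Between the unoperated tissues, 6 of the 11 ids fell in NP against MNB (21.1% of all genes called, 11.1% as lower). They were CD3D (-2.21 ± 0.45, adjusted p = 0.00709), CD3E (-1.87 ± 0.47, adjusted p = 0.0181), CD8A (-1.56 ± 0.43, adjusted p = 0.027), CCL5 (-1.83 ± 0.50, adjusted p = 0.0256) and both GZMA ids. The first GZMA id had 2 counts in NP against 25 in MNB. CD8B was not called between these tissues (-0.07 ± 0.55, adjusted p = 0.948). The number of ids called was 3 on library totals, where 14.9% of all genes were called. Calls were also lost without any 1 of the MNB and NP libraries. Without NP replicate 1 the differences were -1.96 for CD3D, -1.45 for CD3E, -1.25 for CD8A and -1.72 for CCL5.

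The make-up of the T cell signal was described by ratios of counts within a library, which composition scaling does not touch. Between 2 groups of 2 libraries the smallest two-sided p of an exact permutation test is 0.333, so the ratios are given as values and their differences were not tested. CD8A to CD3E was 2.78 and 3.33 in MN-Exp, 1.25 and 0.846 in MN-Ctrl, 1.95 and 1.54 in NP, and 1.49 and 1.17 in MNB. Both MN-Exp libraries were above all others. CD8A to CD4 was 18.9 and 23.2 in MN-Exp, 8.14 and 9.57 in MN-Ctrl, 9.22 in NP replicate 2, CD4 having no count in replicate 1, and 10.7 and 8.22 in MNB.

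CD8B to CD3E was 1.39 and 1.80 in MN-Exp, 0.270 and 0.577 in MN-Ctrl, 1.45 and 0.315 in NP, and 0.186 and 0.199 in MNB. The MN-Exp values lay above those of MN-Ctrl and MNB, and NP replicate 1, with 32 CD8B and 22 CD3E counts, fell between the MN-Exp libraries. GZMA to CD3E, over both ids, ran the other way, at 0.386 and 0.871 in MN-Exp, 2.06 and 4.21 in MN-Ctrl, 0.636 and 0.519 in NP, and 0.465 and 0.621 in MNB. Here the MN-Ctrl libraries stood above all others. The ratio of CD3E to PTPRC (CD45, carried by all leukocytes) was 0.298 and 0.437 in MN-Exp, 0.234 and 0.588 in MN-Ctrl, 0.146 and 0.154 in NP, and 0.160 and 0.178 in MNB, so the neobladder groups overlapped and lay above the unoperated tissues.

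ITGAE to CD3E was 1.50 and 2.51 in MN-Exp, 1.85 and 1.62 in MN-Ctrl, 9.82 and 3.26 in NP, and 1.78 and 2.42 in MNB. The 3 mucosal groups overlapped and NP lay higher, on 22 and 54 CD3E counts. KLRK1 to CD3E was 0.197 and 0.250 in MN-Exp, 0.239 and 0.708 in MN-Ctrl, 1.59 and 0.648 in NP, and 0.552 and 0.460 in MNB.

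**Figure D3:**
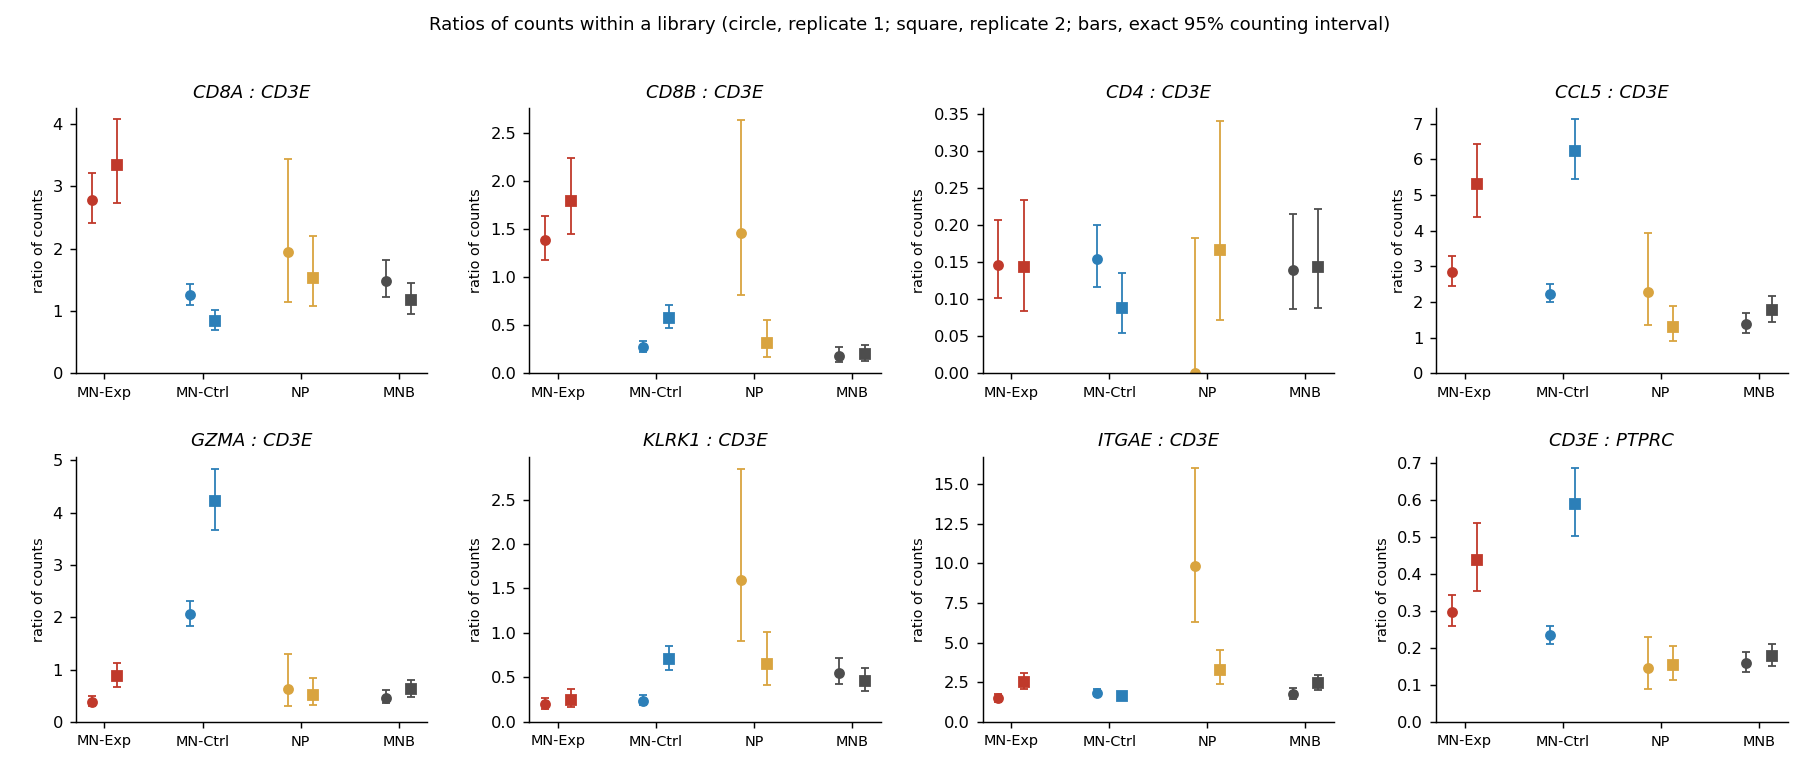
Ratios of counts within each library for 8 gene pairs, on linear axes from 0, by group (circle, replicate 1; square, replicate 2); bars are 95% intervals that cover counting error only. The MN-Exp libraries stand highest in CD8A to CD3E (2.78 and 3.33), and the MN-Ctrl libraries stand highest in GZMA to CD3E (2.06 and 4.21).

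The wider pathway was read on 5 lists without the members, 123 symbols of which 106 had an id and 101 were tested. In MN-Exp against MN-Ctrl, 8 of the 101 rose and 31 fell (38.6%, where 21.7% of all genes were called and 11.3% as lower), with a median of -1.27. On library totals 10 rose and 10 fell, where 2791 of all 16549 genes were called higher and 830 lower. Of 23 genes of the receptor complex and its first signalling steps 7 fell and none rose (30.4% called, against 21.7% of all genes; median -1.46). CD247, the ζ chain that carries the receptor's signal, averaged 19.6 ± 7.96 scaled CPM in MN-Exp and 150 ± 70.4 in MN-Ctrl (SD, n = 2 each; -2.93 ± 0.46, adjusted p = 0.00161). The adaptors TRAT1 (-2.81 ± 0.62, adjusted p = 0.00996), SKAP1 (-1.50 ± 0.35, adjusted p = 0.0134) and GRAP2 (-4.76 ± 1.13, adjusted p = 0.0193, at 6 against 95 counts) also fell.

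Of 19 cytotoxic and natural killer receptor genes 9 fell and none rose (47.4% called, against 21.7% of all genes; median -1.83). Granzyme H (GZMH) averaged 40.5 ± 10.5 scaled CPM in MN-Exp and 185 ± 85.7 in MN-Ctrl (-2.19 ± 0.47, adjusted p = 0.00918). The granule membrane gene NKG7 (-1.82 ± 0.34, adjusted p = 0.00394), the receptor CD244 (-1.92 ± 0.39, adjusted p = 0.00649) and FCER1G (-2.83 ± 0.52, adjusted p = 0.00394) fell as well. FCER1G is an adaptor that myeloid cells also express. Serglycin (SRGN), the granule proteoglycan and the most highly counted gene of the list, stood at 434 ± 75.1 in MN-Exp and 352 ± 263 in MN-Ctrl and was not called (0.31 ± 0.54, adjusted p = 0.719).

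The list of homing, residence and cytokine support went both ways, with 3 of 26 higher and 6 lower (34.6% called, against 21.7% of all genes). CCR9, the receptor that brings T cells to the small intestine, averaged 2.30 ± 1.54 scaled CPM in MN-Exp and 33.1 ± 2.88 in MN-Ctrl (-3.84 ± 0.64, adjusted p = 0.00225). The survival cytokine IL15 (-3.09 ± 0.64, adjusted p = 0.00733) and the adhesion molecule JAML (-1.88 ± 0.43, adjusted p = 0.011) fell too. S1PR1, the receptor for exit from tissue that endothelium also expresses, rose (22.4 ± 1.42 in MN-Exp, 5.80 ± 1.04 in MN-Ctrl; 1.94 ± 0.41, adjusted p = 0.00839). Endothelial markers (4 of 5) summed to 379 and 341 in MN-Exp and 176 and 96.9 in MN-Ctrl; their part in the S1PR1 difference was not tested.

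Among 20 helper and regulatory genes 2 rose and 3 fell (5 of 20 called, a share near the 21.7% of all genes). The transcription factors MAF (5.53 ± 0.213 in MN-Exp, 47.0 ± 7.34 in MN-Ctrl; -3.09 ± 0.39, adjusted p = 0.000414) and TOX (-3.36 ± 0.74, adjusted p = 0.0103) and the cytokine IL22 (5 against 33 counts; -3.46, adjusted p = 0.0334) fell. GATA3, a factor of type 2 helper cells and of urothelium, rose to 166 ± 45.5 scaled CPM in MN-Exp, against 6.23 ± 5.36 in MN-Ctrl (4.69 ± 0.62, adjusted p = 0.000602). GATA3 is also on the urothelial marker list, whose sums differ between these groups as given above.

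Of the wider genes named in this comparison, CD247, CCR9, MAF and GATA3 kept their call in all 14 alternative settings. FCER1G, IL15 and S1PR1 kept it in 13, NKG7, CD244, TRAT1 and TOX in 12, GZMH and SKAP1 in 11, GRAP2 and JAML in 10, and IL22 in 7. IL22 lost it on library totals (adjusted p = 0.089), with a replicate block, and without either MN-Exp library, either MNB library or MN-Ctrl replicate 2. The other losses came on library totals, with the 2 groups alone, without 1 or the other MN-Exp library or, for GRAP2, also without MN-Ctrl replicate 2. Without MN-Ctrl replicate 2 the differences were -2.34 for CD247, -1.90 for FCER1G, -2.38 for IL15 and -3.85 for GRAP2, and CCR9 was at -4.74 without MN-Exp replicate 1. Without MN-Ctrl replicate 1 GATA3 was at 6.11 and TOX at -2.23.

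**Figure D4:**
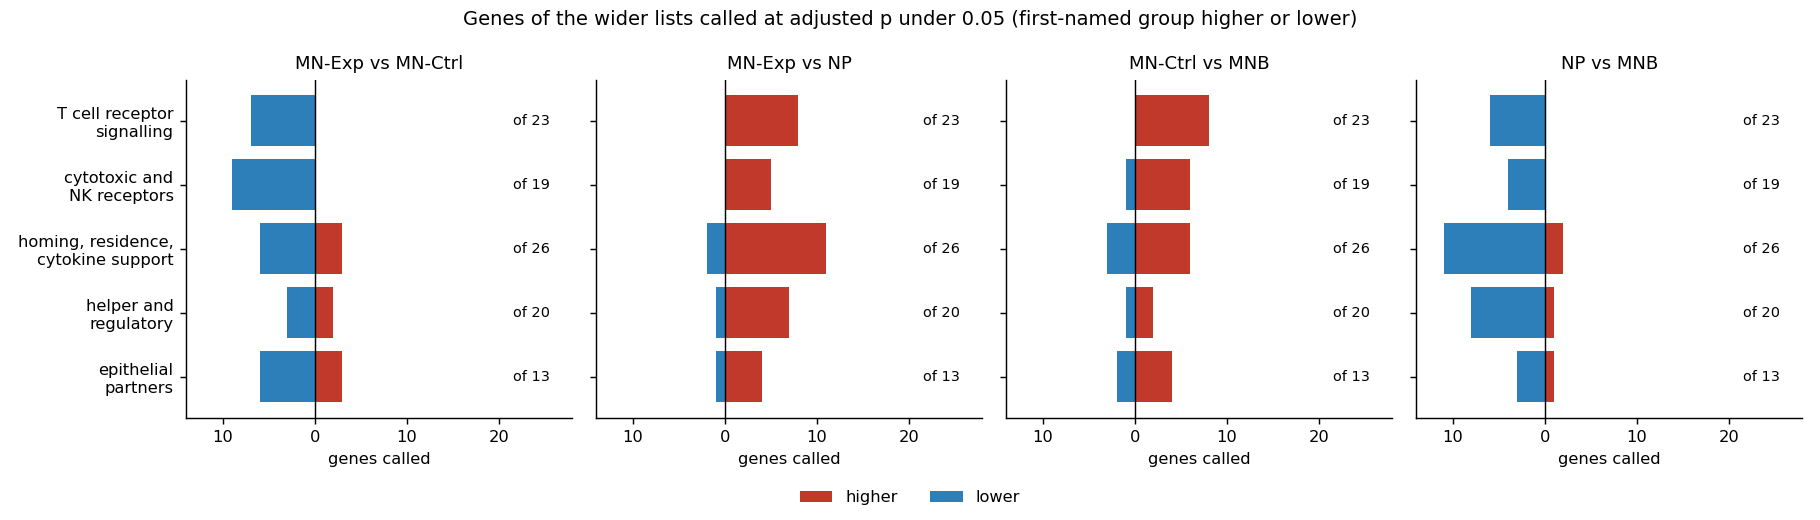
Number of genes called higher (right of 0) and lower (left of 0) in each of the 5 wider lists in 4 comparisons, with the number tested beside each bar. In MN-Exp against MN-Ctrl the receptor list shows 0 higher and 7 lower of 23, and the cytotoxic list 0 higher and 9 lower of 19.

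Against MNB, none of the 101 wider genes was called in MN-Exp (0.0967% of all genes). An unadjusted p under 0.05 was found for 18, 9 higher and 9 lower, where 8.01% of all genes had one. DESeq2 called 5, where it called 1.50% of all genes. Against NP, 35 rose and 4 fell in MN-Exp (24.2% of all genes called). Of the 26 homing and residence genes 11 rose and 2 fell. They included RUNX3, a factor of CD8 and tissue-resident T cells (9.77 ± 0.444 scaled CPM in MN-Exp, 3 counts in NP, adjusted p = 0.000533), PRDM1 (5.05 ± 0.68, adjusted p = 0.000572), JAML (3.66 ± 0.46, adjusted p = 0.000382), and the retention receptor CD69, with 142 counts in MN-Exp and none in NP (adjusted p = 0.000807). In the receptor list CD5 (3.83 ± 0.69, adjusted p = 0.00299; 3.07 without NP replicate 1 and 5.97 without NP replicate 2) and SKAP1 (2.08 ± 0.37, adjusted p = 0.00287) rose, and in the cytotoxic list GZMH (3.39 ± 0.51, adjusted p = 0.00113).

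In MN-Ctrl against MNB, 26 of the 101 rose and 7 fell (22.3% of all genes called, 11.2% as higher). On library totals 11 rose and 12 fell, where 763 of all 16549 genes were called higher and 3327 lower. As reported, 68 rose and 11 fell in MN-Ctrl against NP (42.3% of all genes called). GZMH was 18.9-fold higher in MN-Ctrl than in MNB (4.24 ± 0.52, adjusted p = 0.000389), and CCR9 12.2-fold (3.61 ± 0.63, adjusted p = 0.00288). KLF2, a factor of circulating T cells and endothelium, fell in MN-Ctrl against MNB (-3.50 ± 0.62, adjusted p = 0.00325). In NP against MNB, 4 of the 101 rose and 32 fell (21.1% of all genes called). The cytokines IL17A (0 counts in NP, 147 in MNB, adjusted p = 0.00277) and IL22 (1 count in NP, 124 in MNB, adjusted p = 0.00473) were among those that fell.

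The last wider list holds the epithelial side of the contact between intraepithelial lymphocytes and their host cells. In MN-Exp against MN-Ctrl, 3 of 13 rose and 6 fell (69.2% called, against 21.7% of all genes). CCL25, the small intestinal chemokine that CCR9 reads, stood at 5.93 and 7.14 scaled CPM in MN-Exp, 2189 and 3530 in MN-Ctrl, 10.1 and 6.86 in NP, and 4.60 and 9.04 in MNB. MN-Ctrl was far above the other groups (-8.77 ± 0.71 in MN-Exp against MN-Ctrl, adjusted p = 4.66e-05). HHLA2, a ligand of the B7 family, stood at 0.339 and 0.185 in MN-Exp, 168 and 91.2 in MN-Ctrl, 0.102 and 0.0891 in NP, and 0.0808 and 0.374 in MNB (-8.87 ± 0.67, adjusted p = 4.27e-05).

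ULBP1 encodes a stress ligand that KLRK1 reads. It stood at 32.5 and 42.6 scaled CPM in MN-Exp, 1.52 and 0.937 in MN-Ctrl, 8.46 and 9.53 in NP, and 13.2 and 11.1 in MNB. MN-Exp was above every other group, and the gene rose 29.3-fold against MN-Ctrl (4.87 ± 0.47, adjusted p = 9.83e-05) and 4.17-fold against NP (2.06 ± 0.39, adjusted p = 0.00386), while its 1.62 log2 excess over MNB was not called (adjusted p = 0.214). CDH1, the E-cadherin that ITGAE binds, stood at 753 and 1051 in MN-Exp, 674 and 93.7 in MN-Ctrl, 55.1 and 115 in NP, and 1192 and 912 in MNB. It was 10.6-fold higher in MN-Exp than in NP (3.40 ± 0.83, adjusted p = 0.0145) and not called between MN-Exp and MN-Ctrl (1.23 ± 0.77, adjusted p = 0.276). The call against NP was lost without either NP library (2.99 and 4.07) and without MN-Exp replicate 2 (3.17).

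**Figure D5:**
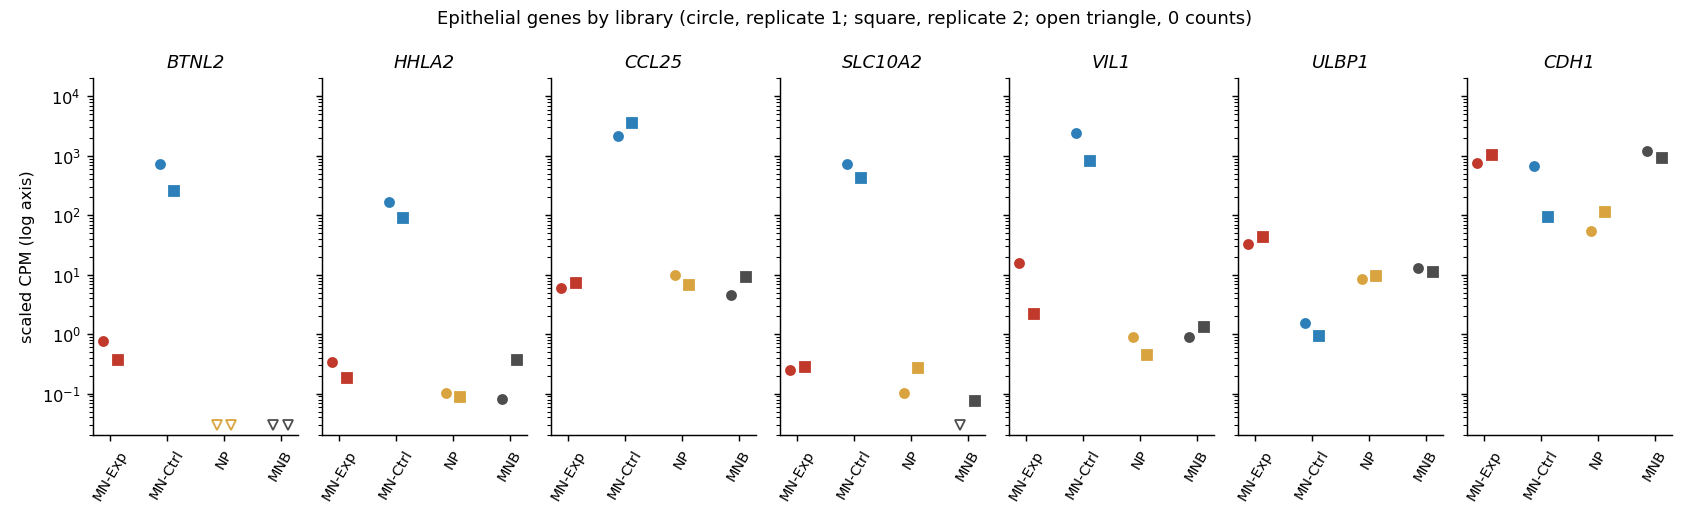
Levels of BTNL2, 4 genes of the epithelial list and the enterocyte genes SLC10A2 and VIL1 in each library, in scaled CPM on a shared log axis, by group (circle, replicate 1; square, replicate 2; open triangle, 0 counts). HHLA2 and CCL25 are highest in MN-Ctrl (168 and 91.2, 2189 and 3530 scaled CPM), and ULBP1 is highest in MN-Exp (32.5 and 42.6).

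The members also differed in the shape of their profile over the 8 libraries, described by the root mean square difference of log2 levels centred on each gene's mean. CD3D and CD3E were 0.35 apart, CD3E and CD4 0.42, CD3E and CD8A 0.61, ITGAE and KLRK1 0.64, CD3E and CD8B 1.23, and the GZMA ids 1.43. BTNL2 was 2.29 or more from every other member. Among 9865 named genes, the closest to CD3E was SIT1, an adaptor of the T cell receptor, at 0.23, followed by GMDS, CHMP4C, ENPP6 and TRIM7 (0.29 to 0.34). SIT1 averaged 6.32 ± 3.29 scaled CPM in MN-Exp, 18.3 ± 6.18 in MN-Ctrl, 1.43 ± 1.01 in NP, and 4.98 ± 1.76 in MNB.

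The closest to ITGAE were CMKLR1, SLC45A2, QARS1, ASL and DHRS1 (0.15 to 0.22). The closest to BTNL2 were GBA3, the ileal bile acid transporter SLC10A2, LBP, villin (VIL1) and OTC, at 0.68 to 0.77. VIL1, an enterocyte brush border gene, averaged 8.87 ± 9.39 scaled CPM in MN-Exp, 1630 ± 1132 in MN-Ctrl, 0.681 ± 0.333 in NP, and 1.12 ± 0.323 in MNB. All these likenesses rest on the same 4 groups and libraries, and in the case of BTNL2 almost wholly on the MN-Ctrl libraries.

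By group mean, MN-Ctrl was highest for 9 of the 11 ids, and MN-Exp was highest for CD8A (50.9 ± 14.3 in MN-Exp, 49.4 ± 11.6 in MN-Ctrl) and CD8B (26.2 ± 5.98 in MN-Exp, 20.3 ± 11.1 in MN-Ctrl), within the spread of the libraries. NP was lowest for 10 ids and shared 0 counts with MNB for BTNL2. The share of all tested genes with these orders of means was not counted. Between MN-Exp and MNB the libraries overlapped for CD3D, CD3E and CD4, and no id was called.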

How the data were processed

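Each of the 8 libraries has 1 deposited table of raw counts, 1 row per Ensembl gene. The submitters' processing notes name Trim Galore, HISAT2, HTSeq 0.11.1 and the pig build Sscrofa11.1; whether counting used strand is not given in the sources used here. Symbols came from a table pairing gene IDs with names, and positions from RefSeq's annotation of the same assembly. The low-count filter was edgeR's filterByExpr by group (16549 of 31907 genes kept). CPM values here are those counts scaled by TMM. A single model without covariates covered all libraries (edgeR 4.0.16 in R 4.3.3, glmQLFit with robust dispersion, glmQLFTest), and p-values were Benjamini-Hochberg adjusted over every tested gene, with a threshold of 0.05. A standard error is the log2 fold change divided by the root of F. The code was tested on simulated data. Other settings tried were DESeq2 (1.42.0), edgeR with size factors from DESeq2, edgeR with no scaling, an unfiltered table, fits of 2 groups, a replicate block, and fits lacking 1 library.

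The members and lists were chosen with earlier results of these data known. All members were described. From each wider list and comparison, up to 4 called genes with the smallest p and the gene with the highest mean could be named, and a gene so named may also be given in other comparisons. PTPRC and the markers named singly were chosen after their values were seen. Likeness was measured over genes averaging at least 5 scaled CPM (log2, prior count 2). With 2 libraries a group and 4 residual degrees of freedom precision is limited, and counting intervals and floors (3 counts) cover counting error only. No pair of replicates agreed within sampling noise. Between the 2 libraries of a group, chi-square per degree of freedom was 295 in MN-Ctrl and 24.9 to 35.7 in the other groups.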

Additional observations from a re-analysis of the deposited data

How the results depend on the processing

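Settings moved the number of calls, and library totals also moved the balance of higher and lower calls. The share of all genes called moved too, also where 1 library was left out. For MN-Exp against MN-Ctrl it was 21.7% as reported, 21.9% on library totals and 16.1% with the 2 groups alone. For MN-Exp against MNB it was 0.0967% as reported, 1.50% by DESeq2, 1.32% with no low-count filter and 3.11% with the 2 groups alone. Of the 8 members lower in MN-Exp than in MN-Ctrl, 3 were called on library totals and 5 with the 2 groups alone. For MN-Exp against MNB, where 0 were called, DESeq2 gave 3, no low-count filter 4 and 2 groups alone 4. On library totals 5 members were called for MN-Ctrl against MNB (24.7% of all genes) and 3 for NP against MNB (14.9%). Leaving out 1 library moved the number of member calls in each comparison except MN-Ctrl against NP. Those counts are not given, because each such fit leaves 1 library in a group. The wider genes tested were 101 as reported and on library totals, 103 or 104 with 1 library left out, 106 without a filter and 90 to 100 with 2 groups alone. MN-Exp against MN-Ctrl gave 20 on library totals (10 higher and 10 lower, against 8 and 31 as reported) and 10 to 45 with 1 library left out (20 without MN-Exp replicate 1, 10 without replicate 2). MN-Exp against MNB gave 5 (DESeq2), 6 (no filter) and 9 (2 groups alone). The ranges with 1 library left out were 24 to 50 for MN-Exp against NP (24 without MN-Exp replicate 1), 14 to 41 for MN-Ctrl against MNB (14 without either MNB library; 11 higher and 12 lower on library totals, against 26 and 7 as reported), 57 to 76 for MN-Ctrl against NP (49 on library totals) and 19 to 49 for NP against MNB (19 without NP replicate 1).

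Signs reversed only for values that were not called. CD8A in MN-Exp against MN-Ctrl was -0.072 by DESeq2 and by its size factors and -0.031 with 2 groups alone. With 1 library left out it ran from -0.26 to 0.33, and CD8B from -0.075 to 1.08. Against MNB, leaving out 1 library gave MN-Exp differences of -0.094 to 0.61 for CD3D, -0.071 to 0.77 for CD3E and -0.042 to 0.82 for CD4, each lowest without MN-Exp replicate 1. KLRK1 in MN-Exp against NP ran from -0.091 to 0.40, and CD8B in NP against MNB from -0.73 to 0.34.

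On library totals the median of all genes in MN-Exp against MN-Ctrl was 0.89, against 0.11 as reported, and 77.1% of calls were higher, against 48.0%. The shares were 18.7% against 50.4% for MN-Ctrl over MNB and 24.9% against 51.2% for MN-Ctrl over NP. Relative to that median CD3D was -2.00 on totals and -2.17 as reported. The replicate block gave 7 member calls for MN-Exp against MN-Ctrl (19.0% of all genes called), 0 against MNB (0.0846%) and 7 against NP (22.1%). For MN-Ctrl it gave 9 against MNB (19.7%) and 11 against NP (38.7%), and for NP against MNB 6 (19.1%). Across genes, the differences between replicates 1 and 2 correlated at -0.08 to 0.09 between groups. With 1 such difference per group, these values cannot show whether same-numbered samples share an animal or a batch. The 99 named results of wider genes kept their call in 1312 alternatives and lost it, in the same direction, in 73, with none reversed. The cause of these changes was not tested.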
